A study of Mus musculus with 4 samples.

Results

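Immune-regulatory ligands and receptors were followed through the deposited single-cell data as a set of 10 of the 12584 genes in the table, taken by symbol. They were Cd274 (PD-L1), Pdcd1lg2 (PD-L2), Cd80, Cd86, Cd40, Icosl, Vsir (VISTA), Havcr2 (TIM-3), Lgals9 (galectin-9) and Pvr (CD155), and all 10 were present. Single-cell RNA profiles of CD45+ live cells, sorted by flow cytometry, came from tumours of YUMM1.7-OVA RTT, a mouse melanoma line with mutant Braf and without Cdkn2a that carries ovalbumin and no longer responds to targeted therapy. The host mice were Rag2-/- and make no T or B cells of their own. OT-1 CD8+ T cells specific for ovalbumin were transferred on day 7 (adoptive cell therapy, ACT), and tumours were taken on day 10, 72 h later. Each of the 4 groups was 1 library made from 3 pooled tumours.

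The CTRL group carried an mCherry control vector in the cancer cells. In the IRF3/7 group the cancer cells, a sorted population rather than 1 clone, overexpressed Irf3 and Irf7 from the viral SFFV promoter. The COX2i group was the mCherry line in mice given celecoxib, an inhibitor of the prostaglandin-producing enzyme COX2. The COX2i + 5-AZA group was the same line in mice given celecoxib and the DNA methylation inhibitor 5-azacytidine. All groups, CTRL included, received T cells. The labels gave no age for the mice.

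With 1 library per group, the spread between tumours or libraries could not be estimated, and no test between groups was possible. Levels are given as CPM, the count of unique molecular identifiers (UMIs) of a gene scaled to 1e+06 UMIs of the same cells and library. Brackets hold 95% intervals, exact Poisson for a level and exact conditional for a ratio, and cover counting error only. A gene is called higher or lower where the ratio reached 2-fold, which is 1 on the log2 scale, where the pair of libraries held 20 or more UMIs. The assay counts hybridised probes, so levels were compared between cells and libraries and never between genes.

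The table held 34447 cells, between 6329 and 10032 per library, with library totals of 26356819 UMIs in IRF3/7 and 67891118 to 78722763 in the others. The median cell had 3168 UMIs in IRF3/7 and 6040 to 7502 elsewhere. No full barcode was shared between libraries. Droplet barcodes without the sample part were shared by 29.1% of cells, since the libraries were multiplexed. Cancer cells were not sorted for, so the targeted genes do not check the labels. These genes were read over all sorted cells of each library, the class Myofibrobl included. In these cells Irf7 stood at 62.1 CPM in CTRL, 4964 in IRF3/7, 86.2 in COX2i and 436 in COX2i + 5-AZA, and Irf3 at 41.6, 138, 43.2 and 42.4 CPM in the same order. Transcripts of the transgene and of the cells' own genes could not be told apart. Cell classes were those the authors assigned, and 15 of the 17 had at least 50 cells in some library. The class DC3 carried markers of CCR7+ dendritic cells, with 5 of the 6 CCR7_DC markers in the table and none at 0 in any library. The class Myofibrobl was sorted as CD45+ but was low in Ptprc, the gene for CD45, at 18.3 to 37.4 CPM against 290 to 723 over all cells. Whether this class held cancer cells was not tested.

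The 10 genes encode surface or secreted proteins through which myeloid cells speed up or slow down T cells. PD-L1 and PD-L2 bind the inhibitory receptor PD-1. CD80 and CD86 give the second signal of T cell priming through CD28 and are captured by the inhibitory receptor CTLA-4, and CD80 also binds PD-L1 on the same cell. CD40 on antigen-presenting cells is triggered by CD40 ligand and licenses them, and ICOS ligand engages ICOS. VISTA, TIM-3 and galectin-9 mostly restrain T cells or myeloid cells, and CD155 binds the activating receptor CD226 and the inhibitory receptor TIGIT. PD-L1 is a textbook target of interferon signalling through the transcription factor IRF1.

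Cd274 and Pdcd1lg2, the PD-1 ligand genes, lie side by side on chromosome 19 of the mouse genome. In the GENCODE vM21 annotation of build GRCm38, Cd274 spans chr19:29367455-29388095 and Pdcd1lg2 chr19:29410919-29471161, both on the plus strand, with 22823 bases between them. The 250 bases before each RefSeq start site are shown because the pair gave the widest differences between libraries, and those of Lgals9 because its promoter alone, of the 7 at hand, held one of the motifs searched. The RefSeq promoters used here (build GRCm38.p6) covered 7 of the 10 genes, and those of Cd86, Cd40 and Pvr were not analysed here.
Cd274, chr19:29367188-29367437, plus strand: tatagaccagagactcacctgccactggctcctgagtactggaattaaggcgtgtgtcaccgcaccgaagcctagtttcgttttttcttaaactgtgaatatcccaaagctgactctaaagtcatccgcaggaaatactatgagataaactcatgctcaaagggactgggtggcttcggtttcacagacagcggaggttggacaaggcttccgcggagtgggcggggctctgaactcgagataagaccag
Pdcd1lg2, chr19:29410669-29410918, plus strand: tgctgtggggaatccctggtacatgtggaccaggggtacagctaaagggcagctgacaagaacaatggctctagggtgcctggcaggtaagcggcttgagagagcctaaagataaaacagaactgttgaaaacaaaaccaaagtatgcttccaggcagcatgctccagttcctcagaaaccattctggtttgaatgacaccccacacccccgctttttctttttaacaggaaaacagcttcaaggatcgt
Lgals9, chr11:78984925-78985174, minus strand: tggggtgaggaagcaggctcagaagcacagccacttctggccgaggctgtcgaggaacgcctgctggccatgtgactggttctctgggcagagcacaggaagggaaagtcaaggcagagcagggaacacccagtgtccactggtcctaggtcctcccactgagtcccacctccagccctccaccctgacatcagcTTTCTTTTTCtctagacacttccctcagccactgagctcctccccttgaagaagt
The capitals in the Lgals9 promoter mark a match, on the opposite strand, to the core of the interferon-stimulated response element (ISRE), spelled GAAA, 2 bases of any kind and GAAA, at -55 to -46 from the first base of the gene. The other match to this core lay at 16 to 25 within the gene, counting its first base as 1. In windows of 300 bases (250 before and 50 after the start), searched on both strands, 3.44% of all 32851 RefSeq promoters held this core. The interferon-gamma activation site, spelled TTC, 3 bases of any kind and GAA, was in 8.3% and the NF-kappaB site, spelled GGGA, any base and TTTCC, was in 0.411%. None of the other 6 promoters held any of these letters, which says nothing of elements elsewhere.

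The first question was where each gene was expressed within the myeloid infiltrate. DC3 cells, few in number, had the highest mean level of 7 of the 10 genes: Cd274, Pdcd1lg2, Cd80, Cd86, Cd40, Icosl and Pvr. The other 3, the inhibitory molecules Vsir, Havcr2 and Lgals9, were near the bottom of the order in DC3 and highest in monocytes or macrophages. The order was taken on the mean over libraries with at least 50 cells of a class, which for DC3 were IRF3/7 (66 cells) and COX2i + 5-AZA (87 cells), so classes are compared over unlike sets of libraries. Within each of these 2 libraries DC3 was first for Pdcd1lg2, Cd80, Cd86, Cd40 and Pvr. It was not first for Cd274 in COX2i + 5-AZA, where neutrophils were at 1477 CPM and DC3 at 1012, nor for Icosl in IRF3/7, where cDC2 was at 251 CPM and DC3 at 250. The class DC3 had 10 cells in CTRL and 28 in COX2i.

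For the PD-1 ligands, Cd274 in DC3 stood at 1452 CPM [1293 to 1626] in IRF3/7 and 1012 CPM [916 to 1115] in COX2i + 5-AZA. The smaller DC3 samples gave 523 CPM [332 to 785] in CTRL and 914 CPM [745 to 1111] in COX2i, so Cd274 was high in these cells in each library. Next were Monocyte_3 at 945 CPM in its single library and neutrophils (Neutro), which ranged from 64.8 CPM in CTRL to 1477 in COX2i + 5-AZA. The range of the neutrophils thus took in that of DC3, and neighbouring classes from the second place down to the last overlapped over their libraries. Pdcd1lg2 was more restricted. It stood at 361 CPM [284 to 452] in IRF3/7 and 470 CPM [405 to 542] in COX2i + 5-AZA in DC3, and at 364 and 534 CPM in the smaller CTRL and COX2i samples. The next class, cDC2, had a mean of 84.4 CPM and ranged from 17.2 in CTRL to 226 in COX2i + 5-AZA.

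Among the co-stimulatory genes, Cd80 averaged 777 CPM in DC3 and 299 CPM in TAM_Spp1, the macrophages named for osteopontin. Cd86 averaged 987 CPM in DC3 and 531 CPM in cDC2, and Cd40 901 CPM in DC3 against 248 CPM in TAM_H2Ab1, the macrophages named for an MHC class II gene. Icosl averaged 200 CPM in DC3 and 193 CPM in cDC2, and these overlapped over their libraries. Pvr averaged 205 CPM in DC3 and 122 CPM in Myofibrobl, whose 4 libraries ranged from 97 to 138 CPM. Pvr was the single gene of the 10 with Myofibrobl in second place.

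Of the inhibitory molecules, Vsir averaged 1015 CPM in TAM_H2Ab1 and 143 CPM in DC3, the 14th of 15 classes. Lgals9 averaged 707 CPM in Infl_Mono, the inflammatory monocytes, with a range of 602 to 784 CPM over 4 libraries, against 461 CPM in TAM_H2Ab1 and 76.6 CPM in DC3. Havcr2 was highest in Monocyte_3 at 342 CPM (1 library), followed by cDC1 at 223 CPM, the dendritic cells that cross-present antigen, and it averaged 30.8 CPM in DC3. With classes of 20 or more cells admitted, the first class stayed the same for 9 of the 10 genes. The exception was Icosl, with cDC2 at 193 CPM above DC3 at 169 CPM, which leaves DC3 first for 6 genes.

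**Figure D1:**
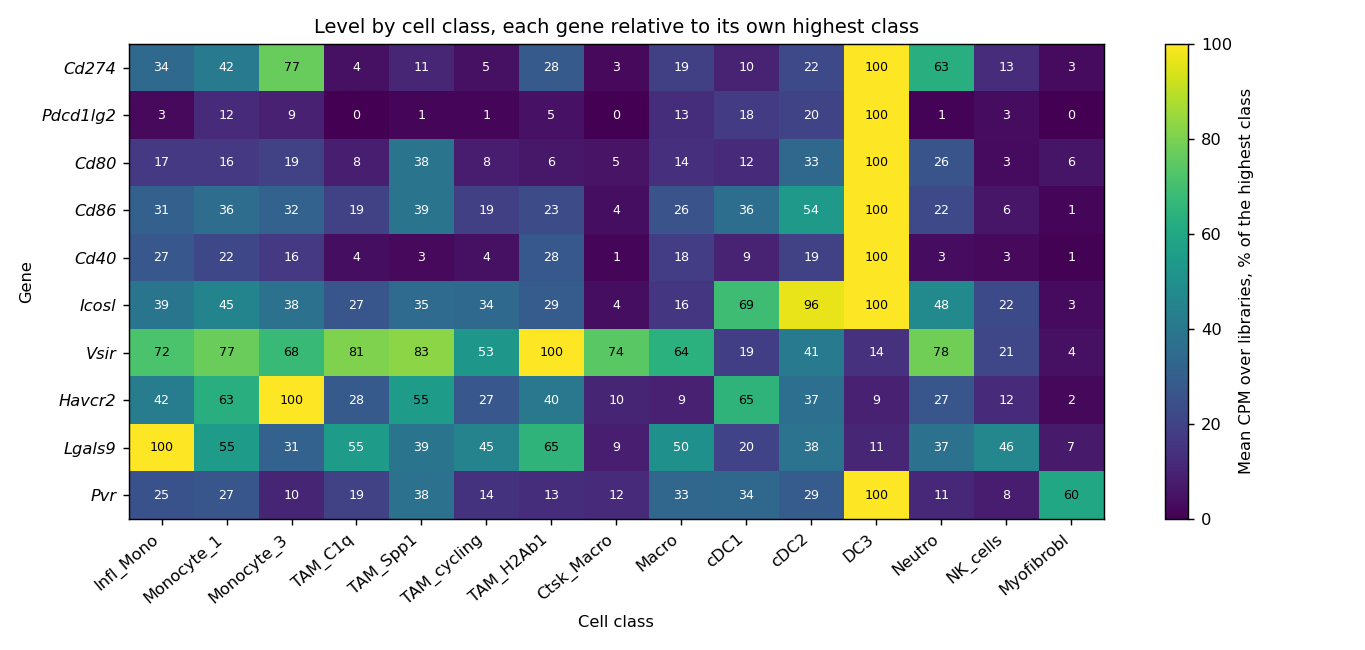
Mean CPM of each gene (rows) in each cell class (columns) over libraries with at least 50 cells of the class, drawn as a percentage of the gene's own highest class. DC3 is the brightest square (yellow) for 7 genes, and Vsir, Havcr2 and Lgals9 are dark there, at ranks of 13 or 14 among 15 classes.

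Levels were then compared between libraries in monocytes and macrophages together, 5035 to 8801 cells per library. Cd274, Pdcd1lg2 and Cd40 showed the wide differences. Cd274 and Cd40 were highest in IRF3/7, and Pdcd1lg2 was highest in COX2i + 5-AZA. With levels scaled to library totals, Lgals9 passed 2-fold above CTRL in IRF3/7 alone, and Cd80, Cd86, Icosl, Vsir, Havcr2 and Pvr stayed within 2-fold of CTRL in all 3 other libraries. The 3 comparisons with CTRL share that library.

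Cd274 stood at 24.6 CPM [23.3 to 26.0] in CTRL, 578 [567 to 589] in IRF3/7, 39.7 [38.1 to 41.3] in COX2i and 341 [336 to 345] in COX2i + 5-AZA. IRF3/7 and COX2i + 5-AZA were both far above CTRL and COX2i, and no intervals overlapped. Pdcd1lg2 stood at 0.915 CPM [0.679 to 1.21] in CTRL, 4.76 [3.80 to 5.89] in IRF3/7, 2.69 [2.30 to 3.12] in COX2i and 39.6 [38.1 to 41.1] in COX2i + 5-AZA. These rested on 50, 85, 168 and 2707 UMIs, and COX2i + 5-AZA stood apart from the other 3. Cd40 stood at 20.6 CPM [19.4 to 21.8] in CTRL, 284 [277 to 292] in IRF3/7, 40.2 [38.7 to 41.8] in COX2i and 104 [101 to 106] in COX2i + 5-AZA, an order with IRF3/7 first and CTRL last.

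Cd80, a CD28 ligand, was at 107 CPM in CTRL, 163 in IRF3/7, 69.4 in COX2i and 124 in COX2i + 5-AZA. Cd86 was at 208, 356, 173 and 305 CPM in the same order, so both genes were highest in IRF3/7 and lowest in COX2i. Icosl was at 52.3, 81.9, 73.5 and 60.3 CPM, lowest in CTRL.

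Among the inhibitory molecules, Vsir was at 791 CPM in CTRL, 894 in IRF3/7, 594 in COX2i and 733 in COX2i + 5-AZA. Havcr2 was at 127, 186, 91.5 and 136 CPM in that order. Lgals9 was at 312, 734, 320 and 370 CPM, with IRF3/7 clear of the other 3 libraries. Pvr was at 40.7, 60.6, 40.2 and 41.8 CPM, and the intervals of CTRL, COX2i and COX2i + 5-AZA overlapped.

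**Figure D2:**
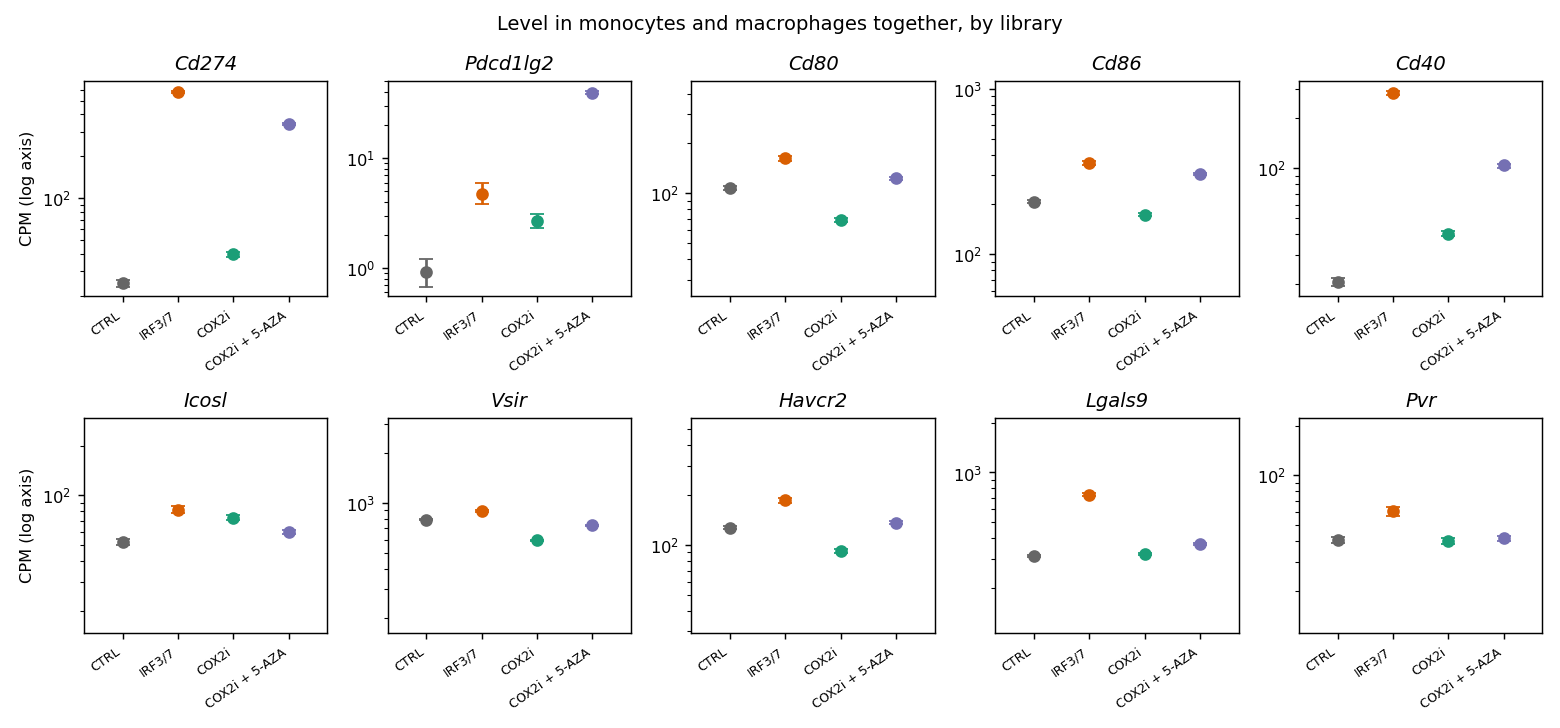
CPM of each gene in monocytes and macrophages by library, on log axes that span at least 20-fold, with 95% counting intervals as bars. Cd274 runs from 24.6 CPM in CTRL to 578 in IRF3/7, Pdcd1lg2 from 0.915 in CTRL to 39.6 in COX2i + 5-AZA, and the points of Vsir and Pvr lie within 2-fold of each other.

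IRF3/7 against CTRL asked how the set differed when the cancer cells overexpressed the interferon regulatory factors. Of the 10 genes, 4 were higher in monocytes and macrophages (Cd274, Pdcd1lg2, Cd40 and Lgals9) and 0 were lower. Over all 11793 genes with enough UMIs, 9.16% were higher and 32.2% lower. The median log2 ratio was 0.71 over the set and -0.55 over all genes. With median-of-ratios scaling, which centres the typical gene, 9 of the 10 genes were higher and 0 lower, against 14.4% of all genes higher and 20.7% lower under the same scaling. Cd274 was 23.5-fold higher (log2 4.55 [4.47 to 4.64]), and the ratio was 5.10 on the log2 scale relative to the median gene. Cd40, the receptor that licenses antigen-presenting cells, was 13.8-fold higher (log2 3.79 [3.69 to 3.88]). Pdcd1lg2 was 5.2-fold higher (log2 2.38 [1.86 to 2.91]) and Lgals9 2.35-fold (log2 1.23 [1.20 to 1.27]). With the IRF3/7 classes weighted by their shares in CTRL, Pdcd1lg2 was lower (log2 -1.18) and Lgals9 short of 2-fold (log2 0.80). This weighting rests on few IRF3/7 macrophages, among them 20 TAM_cycling cells. Cd86 followed at 0.77 [0.73 to 0.82] on the log2 scale and Vsir was last at 0.18 [0.15 to 0.20].

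COX2i against CTRL asked what celecoxib alone went with. Of the 10 genes, 1 (Pdcd1lg2) was higher and 0 were lower, with 1.93% of 11905 genes higher and 4.7% lower. The medians were 0.01 over the set and 0.01 over all genes. Pdcd1lg2 was 2.94-fold higher (log2 1.55 [1.09 to 2.04]), and without the 3 monocyte classes its log2 ratio was 0.86, short of 2-fold. Cd40 reached 1.95-fold (log2 0.97 [0.86 to 1.07]) and Cd274 1.61-fold (log2 0.69 [0.59 to 0.78]). The log2 ratios were below 0 for Cd80 (-0.63 [-0.68 to -0.57]), Havcr2 (-0.48 [-0.53 to -0.43]), Vsir (-0.41 [-0.43 to -0.39]) and Cd86 (-0.26 [-0.30 to -0.23]), all short of 2-fold. Pvr was at -0.02 [-0.10 to 0.06], an interval that includes 0. Without TAM_cycling, the proliferating macrophages, 3 genes were past 2-fold in place of 1, Pdcd1lg2 at 1.78, Cd40 at 1.22 and Cd274 at 1.07, against 1.89% of 11661 genes higher in the same cells.

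COX2i + 5-AZA was compared with CTRL and with COX2i, the library given celecoxib without 5-azacytidine. In both comparisons the same 3 genes, Cd274, Pdcd1lg2 and Cd40, were higher and 0 of 10 were lower. Against CTRL 5.65% of 12001 genes were higher and 11.3% lower, and the medians were 0.23 over the set and -0.16 over all genes. Against COX2i 6.16% of 11940 genes were higher and 9.77% lower, and the medians were 0.70 and -0.19. The 2 comparisons share the COX2i + 5-AZA library. Pdcd1lg2 was 43.2-fold above CTRL (log2 5.43 [5.03 to 5.87]) and 14.7-fold above COX2i (log2 3.88 [3.65 to 4.11]). Cd274 was 13.8-fold above CTRL (log2 3.79 [3.71 to 3.87]) and 8.59-fold above COX2i (log2 3.10 [3.04 to 3.16]). Cd40 was 5.04-fold above CTRL (log2 2.33 [2.24 to 2.43]) and 2.58-fold above COX2i (log2 1.37 [1.30 to 1.43]). With the classes weighted as in COX2i, Cd40 was at 0.71 above COX2i, short of 2-fold. Of the rest, Cd86 was nearest to the threshold against CTRL at 0.55 [0.52 to 0.58], and Pvr was at 0.04 [-0.04 to 0.12]. Icosl was the only gene of the 10 with a log2 ratio below 0 against COX2i, at -0.29 [-0.35 to -0.22].

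The libraries with the highest PD-1 ligand levels were also set against each other, a comparison added after the data had been seen. In COX2i + 5-AZA against IRF3/7, Pdcd1lg2 was 8.31-fold higher (log2 3.05 [2.74 to 3.38]), while Cd40 was lower (log2 -1.45 [-1.50 to -1.40]). With the classes weighted as in IRF3/7, Cd40 was at -0.45, short of 2-fold. These were 1 gene higher and 1 lower of 10, against 20.8% of 11705 genes higher and 6.63% lower. Cd274 was at -0.76 [-0.80 to -0.73] and Lgals9 at -0.99 [-1.02 to -0.96]. The 2 PD-1 ligand genes thus lay on opposite sides of 0 in this comparison, and relative to the median gene they were at 2.72 for Pdcd1lg2 and -1.10 for Cd274. Without the 3 monocyte classes Pdcd1lg2 was at 0.57, short of 2-fold.

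Cells with a detected transcript gave the same picture for Cd274 when each cell was thinned to 2000 UMIs, which leaves out 212 cells in CTRL, 975 in IRF3/7, 187 in COX2i and 492 in COX2i + 5-AZA. Cd274 was then found in 4.96% of monocytes and macrophages in CTRL, 54.9% in IRF3/7, 7.65% in COX2i and 45.1% in COX2i + 5-AZA. Unthinned, the shares were 11.4%, 67.5%, 17.3% and 71.6%, with COX2i + 5-AZA above IRF3/7, against the order of the thinned shares and of the CPM. Cd40 was found in 3.36%, 33.3%, 6.66% and 16.8% of thinned cells, in the order of its CPM. Pdcd1lg2 was found in 0.149%, 0.69%, 0.501% and 6.96%, so even in COX2i + 5-AZA most monocytes and macrophages had no UMI at this depth. In Myofibrobl, a class low in these ligands, the thinned shares for Cd274 were 1.29%, 10.6%, 1.62% and 11.3%, and those for Pdcd1lg2 0.185%, 0%, 0.231% and 1.26%. In DC3, by contrast, Cd274 was found in 78.6% to 82.1% of thinned cells in every library and Pdcd1lg2 in 42.9% to 60%.

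The same genes were then compared within single cell classes that had at least 50 cells in both libraries. Cd274 was higher in COX2i + 5-AZA than in CTRL in 8 of 8 classes, monocytes, macrophages, dendritic cells, neutrophils and Myofibrobl alike. Pdcd1lg2 was higher in 6 of the 6 classes with enough UMIs and Cd40 in 5 of 8. The share of all genes higher in this comparison was 6.04% in Infl_Mono, 3.73% in TAM_C1q, 2.88% in TAM_Spp1, 4.4% in TAM_cycling, 6.8% in Macro, 4.4% in cDC2, 7.58% in Neutro and 5.53% in Myofibrobl. In COX2i against CTRL, Cd274 and Cd40 were each higher in 4 of 7 classes and Pdcd1lg2 in 2 of 3. The log2 ratio of Cd274 ran from 0.26 in TAM_Spp1 to 2.67 in Ctsk_Macro with a median of 1.04, and that of Cd40 from 0.33 in Infl_Mono to 2.04 in Myofibrobl with a median of 1.01. The share of all genes higher there was 3.7% in Infl_Mono, 1.61% in TAM_C1q, 1.55% in TAM_Spp1, 1.62% in TAM_cycling, 4.02% in Ctsk_Macro, 3.52% in cDC2 and 4.54% in Myofibrobl. In COX2i + 5-AZA against COX2i, the log2 ratio of Cd274 ran from 0.55 in NK cells to 2.76 in TAM_cycling, with a median of 1.55. In Monocyte_1 it was short of 2-fold. That of Pdcd1lg2 ran from -1.24 in NK cells to 4.41 in TAM_C1q, with a median of 2.02.

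For Cd274, levels in CTRL and COX2i + 5-AZA were 13.4 and 127 CPM in TAM_C1q, 60.5 and 269 in TAM_Spp1, 10.2 and 142 in TAM_cycling, and 77.6 and 377 in cDC2. The log2 ratio ran from 1.88 [1.45 to 2.33] in Macro to 4.51 [3.88 to 5.23] in neutrophils, where 65 cells in CTRL gave 64.8 CPM and 196 cells in COX2i + 5-AZA gave 1477 CPM. The neutrophil class itself differed between these libraries. Its summed macrophage markers (7 of 7 in the table, none at 0) were at 35100 CPM in CTRL and 5015 in COX2i + 5-AZA, its summed neutrophil markers were at 25584 and 94138 CPM, and their part in the result was not tested.

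Infl_Mono differed in a like way. Its 93 cells in CTRL held 50727 CPM of the summed macrophage markers, against 9656 in IRF3/7, 17468 in COX2i and 6932 in COX2i + 5-AZA, with none of the 7 at 0, and the part of this in the ratios with CTRL was not tested. Its summed monocyte markers (6 of 7 in the table, none at 0) were at 7713, 16392, 9595 and 14245 CPM in that order. In these cells Cd274 was at 116 CPM [87.4 to 150] in CTRL, 617 [604 to 630] in IRF3/7, 244 [206 to 286] in COX2i and 713 [687 to 740] in COX2i + 5-AZA. The log2 ratios to CTRL were 2.42 [2.04 to 2.82] for IRF3/7, 1.08 [0.62 to 1.55] for COX2i and 2.62 [2.24 to 3.03] for COX2i + 5-AZA. Cd40, in contrast, was at 211, 284, 265 and 215 CPM, within 2-fold across the 4 libraries, and Lgals9 at 712, 784, 729 and 602 CPM. In Infl_Mono of IRF3/7 against CTRL 4 of the 10 genes were higher and 0 lower, with 6.17% of all genes higher and 19.4% lower. Beside Cd274 these were Havcr2 (log2 1.24 [0.79 to 1.72]), Cd80 (log2 1.21, 186 against 80.5 CPM) and Cd86 (log2 1.10 [0.80 to 1.42]). With the mean of each cell's CPM, Cd80 was at 0.65 and Cd86 at 0.88, short of 2-fold.

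Pdcd1lg2 had 0 UMIs in the Infl_Mono cells of CTRL, which allows up to 7.62 CPM, and was at 3.46 CPM [2.58 to 4.55] in IRF3/7, 8.19 [2.66 to 19.1] in COX2i and 31.2 [25.9 to 37.2] in COX2i + 5-AZA. In Monocyte_1 it was at 15.5 CPM in IRF3/7, 41.9 in COX2i and 92.6 in COX2i + 5-AZA. In TAM_cycling it was at 0.444 CPM in CTRL, 1.84 in COX2i and 15.2 in COX2i + 5-AZA. COX2i + 5-AZA was thus the highest of the libraries compared in each of these 3 classes.

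The cDC2 class, 261 to 666 cells per library, allowed a comparison of all 4 libraries. Cd274 was at 77.6 CPM in CTRL, 498 in IRF3/7, 138 in COX2i and 377 in COX2i + 5-AZA, and Cd40 was at 36.3, 399, 91.3 and 168 CPM in that order. Pdcd1lg2 was at 17.2, 55.7, 38.2 and 226 CPM, again with COX2i + 5-AZA first. In IRF3/7 against CTRL, 4 of the 10 genes were higher, Cd274, Pdcd1lg2, Cd40 and Lgals9, and 1 was lower, Pvr. Over 9225 genes 6.01% were higher and 17.5% lower. The log2 ratios were 3.46 [3.15 to 3.78] for Cd40, 2.68 [2.46 to 2.91] for Cd274, 1.69 [1.15 to 2.25] for Pdcd1lg2, 1.23 [1.06 to 1.40] for Lgals9 and -1.09 [-1.56 to -0.63] for Pvr. In COX2i + 5-AZA against CTRL, Pdcd1lg2 was 13.1-fold higher in cDC2 (log2 3.72 [3.27 to 4.19]). The cDC2 cells of IRF3/7 also held more of the monocyte markers, 6700 CPM against 1123 in CTRL, 1265 in COX2i and 2748 in COX2i + 5-AZA, with none of the 6 in the table at 0. Their summed cDC2 markers were at 937 CPM against 1935, 1989 and 1264, and the part of either in these ratios was not tested.

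DC3 could be compared between IRF3/7 and COX2i + 5-AZA. There Pdcd1lg2 was at 0.38 [-0.01 to 0.79] on the log2 scale, COX2i + 5-AZA over IRF3/7, and Cd274 at -0.52 [-0.74 to -0.30]. The same ratio for Pdcd1lg2 was 3.17 [2.69 to 3.67] in Infl_Mono, 2.58 [1.73 to 3.58] in Monocyte_1 (0.95 in cells with more than 2000 detected genes) and 2.02 [1.65 to 2.41] in cDC2. The levels of Cd274 in this comparison lay within 2-fold in all 7 classes, from -0.52 in DC3 to 0.21 [0.15 to 0.27] in Infl_Mono. The difference between these classes was not tested.

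**Figure D3:**
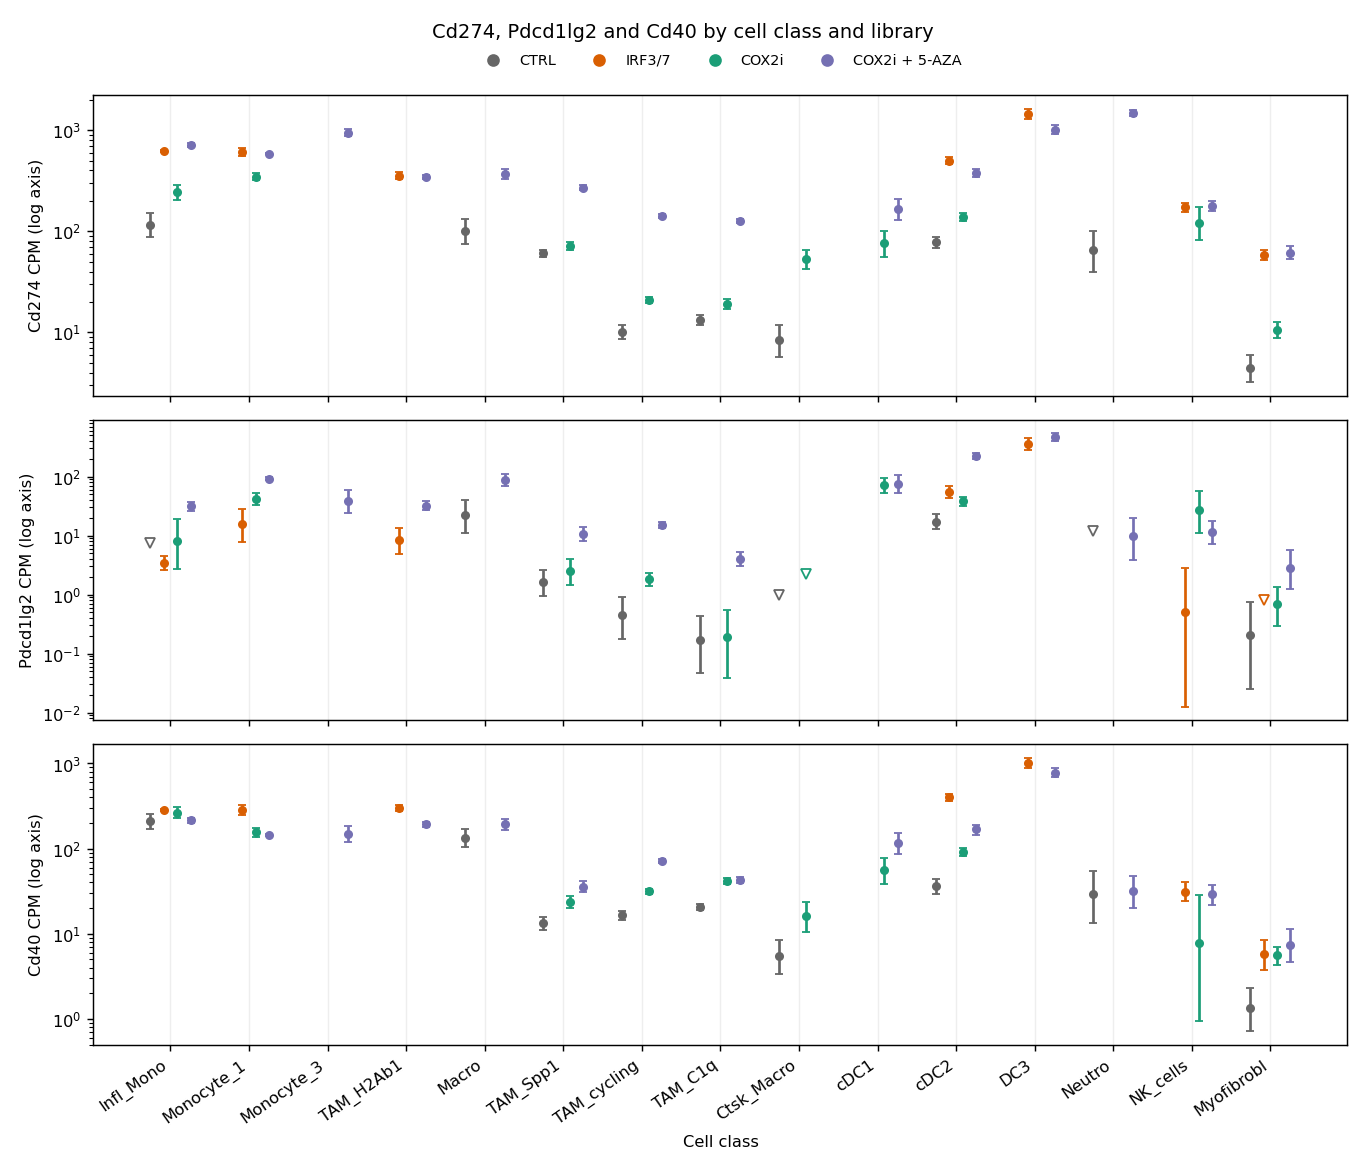
CPM of Cd274, Pdcd1lg2 and Cd40 on log axes in each class and library with at least 50 cells, with 95% counting intervals and an open triangle at the upper limit of a level of 0. Pdcd1lg2 of COX2i + 5-AZA lies above the other libraries in cDC2 (226 CPM against 17.2 to 55.7) but close to IRF3/7 in DC3 (470 and 361 CPM).

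Outside the myeloid cells, Myofibrobl held Cd274 at 4.46 CPM in CTRL, 58.2 in IRF3/7, 10.6 in COX2i and 61.5 in COX2i + 5-AZA. CTRL and COX2i were again below the other pair of libraries, at lower levels than in macrophages. Lgals9 in Myofibrobl was at 19.8, 107, 38.6 and 37.3 CPM, a log2 ratio of 2.43 [2.19 to 2.68] for IRF3/7 against CTRL, and Vsir was at 53.2, 19.4, 61.2 and 47.6 CPM. The summed macrophage markers in Myofibrobl were at 2737 CPM in CTRL, 320 in IRF3/7, 2196 in COX2i and 1197 in COX2i + 5-AZA, with none of 7 at 0, and their part in these levels was not tested. In NK cells Cd274 was at 172 CPM in IRF3/7, 122 in COX2i and 178 in COX2i + 5-AZA, and Lgals9 at 490, 243 and 249 CPM.

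Since the libraries differed in cell composition, the level that each would have had from composition alone was computed over all cells. CTRL levels of each class were weighted by the class shares of the other library. Infl_Mono made up 93 cells in CTRL and 4335 in IRF3/7, and TAM_C1q 3199 and 7 cells, so this calculation leans on few CTRL cells. For IRF3/7 against CTRL, composition alone gave a log2 ratio of 2.20 for Cd274 with 4.20 observed, 2.87 for Cd40 with 3.60 observed, and 0.85 for Lgals9 with 1.15 observed. For Pdcd1lg2 it gave 2.37 with 2.32 observed, but 47.5% of that composition level came from 7 UMIs in 19 TAM_H2Ab1 cells of CTRL and 30.4% from 16 UMIs in 10 DC3 cells. Without TAM_H2Ab1 in either library the values were 1.63 and 2.41. For COX2i + 5-AZA against CTRL it gave 2.46 of 3.76 for Cd274, 2.71 of 4.54 for Pdcd1lg2 and 2.25 of 2.44 for Cd40. Of that Cd40 level 66.4% came from 44 Monocyte_1 cells of CTRL, and without that class the values were 1.19 and 2.24. For Cd40 in IRF3/7, 85.8% came from the 93 Infl_Mono cells, without which the values were 1.36 and 3.17. For COX2i against CTRL it gave 0.16 of 0.72 for Cd274, 0.72 of 1.52 for Pdcd1lg2 and 0.26 of 1.01 for Cd40. The observed Cd274 ratio exceeded the composition value in all 3 comparisons, also with each class that held Cd274 UMIs in CTRL left out in turn, a check added after the data had been seen. Whether Cd40 and Pdcd1lg2 lay near that value depended on these small classes. For COX2i + 5-AZA against COX2i, with COX2i levels weighted in the same way, composition gave 1.86 of 3.03 for Cd274. It gave 1.75 of 3.02 for Pdcd1lg2 and 1.30 of 1.43 for Cd40. The classes were clusters of these same cells, so composition and change within a class cannot be told apart fully.

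**Figure D4:**
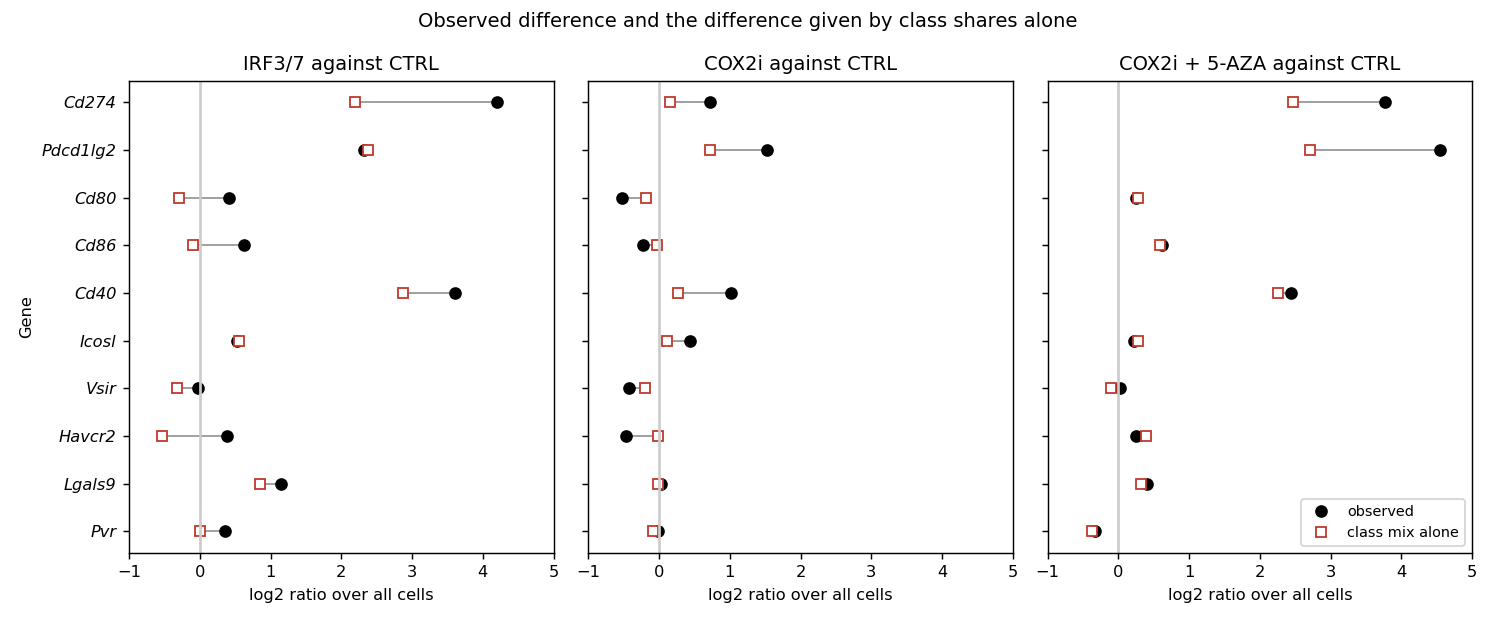
Log2 ratio to CTRL over all cells as observed (black dots) and as computed from class composition alone (red squares), for each gene and the 3 other libraries. The dot of Cd274 lies right of its square in each panel (4.20 and 2.20 in IRF3/7), and those of Pdcd1lg2 in IRF3/7 lie close (2.32 and 2.37), where 19 TAM_H2Ab1 cells of CTRL give 47.5% of the composition level.

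The cells that supplied the transcripts changed with the library as well. Monocytes supplied 7.44% of Cd274 UMIs in CTRL, 78.8% in IRF3/7, 22.9% in COX2i and 60.6% in COX2i + 5-AZA, and made up 1.55%, 72.6%, 6.1% and 46.7% of cells. Monocytes therefore supplied more of Cd274 than their share of cells in every library. Macrophages supplied 71.5% of Cd274 UMIs in CTRL from 83.5% of cells. DC3 supplied 12.8% of Pdcd1lg2 UMIs in CTRL, 31.1% in IRF3/7, 14.2% in COX2i and 5.79% in COX2i + 5-AZA from 0.112%, 1.04%, 0.307% and 0.867% of cells. The other dendritic cells, cDC1 and cDC2, supplied 45.6%, 32.8%, 41.7% and 10.1% of Pdcd1lg2 UMIs, the largest part in CTRL, IRF3/7 and COX2i. In CTRL its interval [36.7 to 54.7] overlapped that of macrophages [28.4 to 45.9] and in IRF3/7 [26.9 to 39.1] those of DC3 [25.3 to 37.4] and monocytes [20.3 to 31.7]. In COX2i + 5-AZA the largest supplier was the monocytes, with 64.3% against 3.2% in CTRL, 25.7% in IRF3/7 and 18.1% in COX2i. Myofibrobl supplied 33.9%, 33.3%, 33.2% and 8.17% of Pvr UMIs from 6.19%, 2.72%, 10% and 1.59% of cells. Its cells were deep, and the class held 14.2%, 17%, 14.9% and 3.69% of the UMIs of all genes in the same order.

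**Figure D5:**
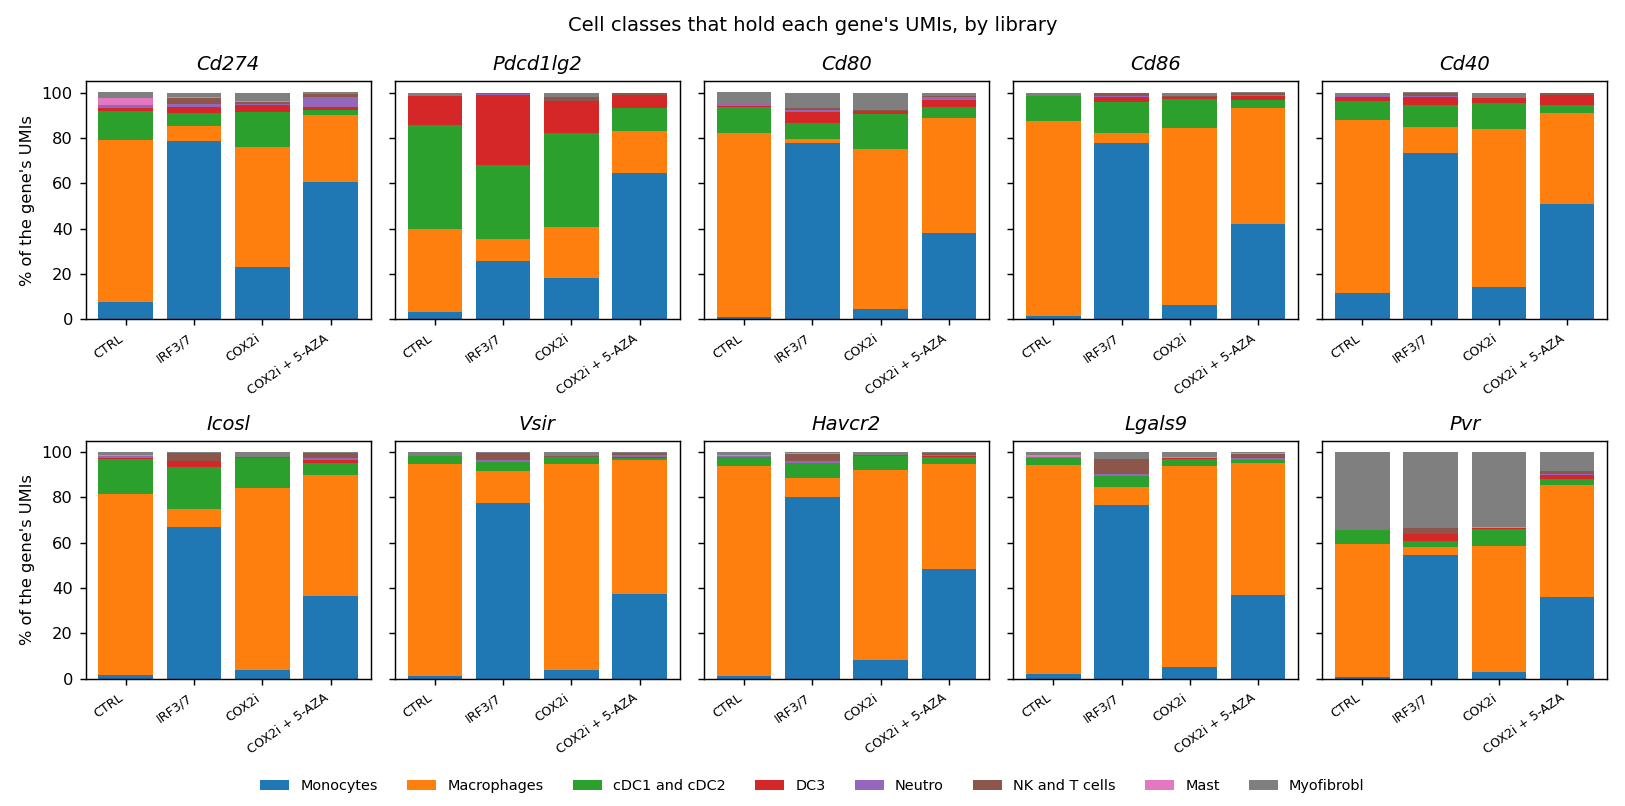
Stacked percentages of each gene's UMIs by the group of cell classes they came from, one bar per library. The monocyte part of Cd274 grows from 7.44% in CTRL to 78.8% in IRF3/7, and DC3, at most 1.04% of cells, fills 31.1% of the Pdcd1lg2 bar in IRF3/7.

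Whether PD-1 ligands were carried by the same cells was read from thinned cells, beside the number given by the product of the 2 shares. In DC3 of COX2i + 5-AZA, 37 cells had both Cd274 and Pdcd1lg2 with 36.9 from the product, and in Monocyte_1 of the same library 304 of 3434 cells had both with 276 from the product. For Cd274 and Cd80, whose proteins bind each other on a cell, 36 cDC2 cells of CTRL had both with 28.2 from the product, and 44 DC3 cells of COX2i + 5-AZA with 44 from the product. For Havcr2 and Lgals9, described as receptor and ligand, 466 Monocyte_1 cells of COX2i + 5-AZA had both with 489 from the product. The counts lay at, above or below the product. For Cd274 with Cd80 most lay above, such as 21 with 8.92 in TAM_cycling of COX2i. Some lay below, such as 13 with 20.9 in Monocyte_1 of IRF3/7. For Cd80 with Cd86 most also lay above, such as 124 with 98.1 in TAM_C1q of CTRL. DC3 of COX2i + 5-AZA lay below, at 40 with 41.3. For Cd274 with Pdcd1lg2, TAM_cycling of COX2i + 5-AZA had 19 with 8.58, and DC3 of IRF3/7 had 19 with 19.7.

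Across 40 pools of one class in one library, the levels of several genes ran together. Pearson's r of log2(CPM + 1) was 0.91 for Cd86 and Icosl, 0.79 for Cd274 and Cd40, 0.79 for Cd86 and Cd40, 0.76 for Cd80 and Cd86, 0.74 for Vsir and Havcr2, and 0.73 for Cd274 and Pdcd1lg2. It was below 0 for Pvr with Vsir (-0.44), Lgals9 (-0.41), Havcr2 (-0.26) and Icosl (-0.05), and for Pdcd1lg2 with Vsir (-0.02). Pools share libraries, depth and cell lineage, so these values are descriptions over classes. Among 11473 genes, those most like Cd274 were Gbp5 (r = 0.92), Irf1 (0.91) and Nlrc5 (0.91). Those most like Pdcd1lg2 were Cd1d1 (0.85), Ciita (0.83), the master regulator of MHC class II, and H2-Aa (0.83), an MHC class II gene. Cd40 was most like Fam49a (0.91), Arl5c (0.89) and Phf11b (0.89), Cd86 like Gpr35 (0.94), Nuak2 (0.93) and the dendritic cell activation marker Cd83 (0.92), and Cd80 like Spag9 (0.85), Vdr (0.81) and Lilra6 (0.81). Icosl was most like Cd86 (0.91), Atad2b (0.90) and Map3k1 (0.90). Vsir was most like Lrrc25 (0.96), Milr1 (0.95) and the macrophage marker Cd68 (0.94), Havcr2 like BC028528, Cnr2 and Tifab (0.89 each), Lgals9 like Il18 (0.89) and Rhoh (0.87), and Pvr like Il6st (0.81), Flrt3 (0.75) and Smurf1 (0.75).

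Regulators of PD-L1, a list of 10 genes of interferon signalling and protein turnover, were read in monocytes and macrophages. In IRF3/7 against CTRL 4 were higher and 1 lower, with 9.16% of all genes higher and 32.2% lower, and the median was 0.28 against -0.55 over all genes. In COX2i against CTRL 2 were higher and 0 lower (1.93% and 4.7% of all genes). COX2i + 5-AZA gave the same counts against CTRL (5.65% and 11.3%) and against COX2i (6.16% and 9.77%). The transcription factor Irf1 stood at 104 CPM in CTRL, 1237 in IRF3/7, 209 in COX2i and 733 in COX2i + 5-AZA, the same order of libraries as Cd274. The kinase gene Jak2 was at 283 CPM in IRF3/7 and 61.6 in CTRL (log2 2.20 [2.14 to 2.26]). Cmtm4, whose protein slows the breakdown of PD-L1, was lower in IRF3/7, at 2.74 against 28.3 CPM (log2 -3.37 [-3.81 to -2.96]).

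Of the 16 genes of CD40 signalling, 5 were higher and 0 lower in IRF3/7 against CTRL, beside 9.16% and 32.2% of all genes, with a median of 0.73 against -0.55 over all genes. Traf1, an adaptor of TNF receptors, stood at 17.1 CPM in CTRL, 103 in IRF3/7, 15.1 in COX2i and 34.1 in COX2i + 5-AZA. It was thus highest in the library where Cd40 was highest. In IRF3/7 against CTRL, Birc3 was at 165 against 56.5 CPM, Tnfaip3 at 192 against 66 CPM and Nfkbia at 944 against 405 CPM, the latter pair being feedback inhibitors of NF-kappaB. In COX2i against CTRL 0 were higher and 1 lower (Nfkbia, 199 against 405 CPM), beside 1.93% and 4.7% of all genes. No gene of the list, 0 of 16, passed 2-fold in either direction in COX2i + 5-AZA against CTRL, beside 5.65% and 11.3%. Against COX2i, 2 were higher in COX2i + 5-AZA, Tnfaip3 (log2 1.60) and Traf1 (log2 1.18), beside 6.16% of all genes.

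Other ligands of T cell checkpoints and co-stimulation, 23 of 25 in the table, held 7 genes higher and 2 lower of 22 in IRF3/7 against CTRL, 1 and 0 of 21 in COX2i, and 5 and 1 of 22 in COX2i + 5-AZA. Over all genes, 9.16% were higher and 32.2% lower in IRF3/7, 1.93% and 4.7% in COX2i, and 5.65% and 11.3% in COX2i + 5-AZA. The medians of these ligands were 0.53 in IRF3/7, -0.07 in COX2i and 0.07 in COX2i + 5-AZA, against -0.55, 0.01 and -0.16 over all genes. Fgl2, a fibrinogen-like protein with immunosuppressive action, stood at 111 CPM in CTRL, 1966 in IRF3/7, 258 in COX2i and 880 in COX2i + 5-AZA. Ido1, which breaks down tryptophan, had 1 UMI in CTRL, 74 in IRF3/7, 6 in COX2i and 115 in COX2i + 5-AZA. Its log2 ratios to CTRL were 7.82 [5.30 to 13.15] for IRF3/7 and 6.52 [4.01 to 11.84] for COX2i + 5-AZA. Tnfsf15 was at 0.677, 9.35, 0.432 and 3.23 CPM, and Nectin3 was lower than in CTRL, with log2 ratios of -2.43 in IRF3/7 and -2.14 in COX2i + 5-AZA.

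A list of 18 partner genes, mostly receptors of T and NK cells but with the CD40 ligand gene Cd40lg and the ligand gene Cd200 among them, had 12 to 14 genes with enough UMIs in monocytes and macrophages. In IRF3/7 against CTRL 4 were higher and 3 lower of 12 (9.16% and 32.2% of all genes). In COX2i it was 2 and 5 of 12 (1.93% and 4.7%), and in COX2i + 5-AZA 4 and 4 of 14 (5.65% and 11.3%). Their medians were -0.12, -0.39 and 0.07 in that order, against -0.55, 0.01 and -0.16 over all genes. Over all cells, 14 were higher and 1 lower of 18 in IRF3/7 (10.8% and 15.9% of all genes). There it was 4 and 3 of 15 in COX2i (2.45% and 3.16%), and 10 and 2 of 17 in COX2i + 5-AZA (6.49% and 11.4%). Tnfrsf9, the receptor 4-1BB, was at 25.4 CPM in CTRL, 6.05 in IRF3/7, 9.45 in COX2i and 60.2 in COX2i + 5-AZA. Transferred T cells were few, with 0 cells of the T_CD8 class in CTRL, 8 in IRF3/7, 1 in COX2i and 7 in COX2i + 5-AZA. The NK cells were 11, 568, 50 and 437 in the same order. In NK cells Cd28 was at 176 CPM in IRF3/7 and 55.9 in COX2i + 5-AZA, Ctla4 at 114 and 140 CPM, and Icos at 111 and 58.5 CPM. Pdcd1, the gene for PD-1, was at 36.8 CPM in NK cells of IRF3/7 and 57.5 in those of COX2i + 5-AZA. In DC3 it was at 114 CPM in CTRL, 245 in IRF3/7, 299 in COX2i and 87 in COX2i + 5-AZA, against 0.854 to 7.02 CPM over all cells, so DC3, high in both PD-1 ligand genes, also held the receptor gene.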

How the data were processed

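CD45+ cells were fixed and profiled with the probe-based 10x Chromium Flex assay, 1 library per group. The deposited counts are whole UMIs per gene and cell, made by the authors with Cell Ranger 7.1.0 on mm10, with no normalization. The authors kept cells with more than 1000 genes, under 15% mitochondrial and under 40% ribosomal reads, removed ribosomal and mitochondrial genes, integrated with Harmony and named 17 classes. Of 34447 cells, 33246 had more than 1000 genes in the deposited table. How doublets were treated is not given in the sources used here, and none were removed here.

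Counts were summed per class and library and scaled to CPM. Intervals were exact Poisson, Clopper-Pearson or exact conditional, all at 95%, and cover counting error only. A ratio needed 20 UMIs in the library pair as a whole and 50 cells per class. Calculations were checked on counts made with known ratios. The 10 genes, the gene lists and the pathway lists were chosen with earlier results of these data known. Beyond the 10 genes, at most 4 genes per list and comparison were named, the largest ratios past 2-fold, plus receptors by class and the 3 genes most like each (at least 200 UMIs). Some genes that this rule names are not reported here. Promoter sequences came from RefSeq. Python 3.11.15, numpy 2.4.6, scipy 1.17.1, pandas 2.3.3 and matplotlib 3.10.9 were used.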

Additional observations from a re-analysis of the deposited data

Results flagged for a closer look

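In 7 cases a gene had log2 ratios of opposite direction in 2 classes under the same comparison, each at least 1.5-fold with an interval clear of 0. The difference between classes was not tested, and 6 of the 7 rest on the 93 Infl_Mono cells of CTRL, which gave 20 to 89 UMIs of these genes.

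In IRF3/7 against CTRL, Cd80 was at 1.21 [0.76 to 1.7] in Infl_Mono and -0.65 [-0.87 to -0.45] in cDC2. Cd86 was at 1.10 [0.80 to 1.42] in Infl_Mono and -0.98 [-1.62 to -0.39] in Myofibrobl. Havcr2 was at 1.24 [0.79 to 1.72] in Infl_Mono and -0.76 [-1.51 to -0.06] in Myofibrobl. Pvr was at 0.67 [0.03 to 1.38] in Infl_Mono and -1.09 [-1.56 to -0.63] in cDC2. In COX2i against CTRL, Havcr2 was at 0.70 [0.14 to 1.28] in Infl_Mono and -0.70 [-1.21 to -0.21] in Ctsk_Macro. In COX2i + 5-AZA against CTRL, Havcr2 was at 1.00 [0.53 to 1.49] in Infl_Mono and -1.26 [-1.93 to -0.59] in Neutro. In COX2i + 5-AZA against IRF3/7, Icosl was at 0.64 [0.17 to 1.11] in NK cells and -0.85 [-1.12 to -0.58] in cDC2.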

How the results depend on the processing

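Values were recomputed with median-of-ratios scaling, the mean of each cell's CPM, a minimum of 100 or 1 UMIs, cells with more than 2000 genes, the 1% of cells with most UMIs left out, and the class mix of the second library, plus 2 settings chosen after seeing the data, without TAM_cycling and without the 3 monocyte classes. With median-of-ratios scaling 110 of 110 ratios past 2-fold kept their direction and 104 stayed past it, with the class mix 26 and 20 of 27. Counts of the 10 genes past 2-fold are given below with, in parentheses, the share of all genes past 2-fold under the same setting. In monocytes and macrophages, those higher in IRF3/7 against CTRL went from 4 (9.16%) to 9 (14.4%) with median-of-ratios scaling, and those lower from 0 (32.2%) to 1 with the class mix (29.5%) and 1 without the monocyte classes (15.3%). In COX2i against CTRL, those higher went from 1 (1.93%) to 2 with mean CPM (2.47%), 3 without TAM_cycling (1.89%) and 0 without the monocyte classes (1.85%). In COX2i + 5-AZA against COX2i, those higher went from 3 (6.16%) to 5 with median-of-ratios scaling (7.6%). Those lower in COX2i + 5-AZA against IRF3/7 went from 1 (6.63%) to 3 with median-of-ratios scaling (10.2%), 2 in cells with more than 2000 genes (6.36%) and 0 with the class mix (6.91%). Over all cells, those higher in COX2i against CTRL went from 2 (2.45%) to 1 with median-of-ratios scaling (2.28%), without the top 1% of cells (2.71%) and with the class mix (1.95%), and those lower in COX2i + 5-AZA against IRF3/7 from 1 (12%) to 0 in cells with more than 2000 genes (15.2%) and with the class mix (4.11%). Within classes, pairs of gene and class lower in IRF3/7 against CTRL went from 3 (16.1% of all such pairs) to 1 without the top 1% of cells (15.3%) and with mean CPM (14.6%). For COX2i + 5-AZA against CTRL, pairs lower went from 2 (7.88%) to 0 with median-of-ratios scaling (6.53%), 100 UMIs (3.73%) or 2000 genes (6.91%), and against COX2i from 2 (5.52%) to 1 with 100 UMIs (2.37%). Against IRF3/7, pairs lower went from 2 (5.23%) to 4 with median-of-ratios scaling (5.78%) and 5 with mean CPM (5.77%), and pairs higher from 11 (8.41%) to 6 with 100 UMIs (5.64%). Of ratios past 2-fold, 2 reversed. Pdcd1lg2 in monocytes and macrophages, IRF3/7 against CTRL, went from 2.38 to -1.18 with the class mix, in which the 20 TAM_cycling cells of IRF3/7 weigh heavily, and Pdcd1lg2 in NK_cells, COX2i + 5-AZA against COX2i, from -1.24 to 0.09 with mean CPM. The cause was not tested. Shares of cells with a UMI were limited by the lower depth of IRF3/7. No paired analysis was possible because each group had 1 library.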
